A study of Mus musculus with 15 samples.

Results

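The comparison set the motor pool of the extensor digitorum longus (EDL), the long muscle of the leg that lifts the toes, against the motor pool of the intrinsic foot muscles (IF), the small muscles that lie within the foot. It rests on 6 of the 15 libraries of the series, 3 from EDL and 3 from IF, chosen by the muscle named in the labels and not by any measured value. The other 9 libraries came from the pools of the tibialis anterior (TA), the peroneus longus (PL) and the gastrocnemius (GS), 3 each. All animals were wild-type mice of postnatal day 6, with 0.1% of the retrograde tracer CTB-Alexa 555 put into the muscle at day 4, so both pools had been injected and traced. Traced cells were cut by laser from frozen cord sections of 12 µm, and a library pooled 30 to 40 cells of 2 to 5 animals. IF joins the neurons of several muscles, while EDL is a single muscle. The labels describe the libraries as biological replicates without naming the animals behind each, so that the p-values measure the spread between these pools of cells.

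A motor pool is the cluster of spinal motor neurons that supplies a single muscle. Limb motor neurons of vertebrates lie in the lateral motor column, whose medial division, marked by Isl1, supplies the ventral limb muscles and whose lateral division, marked by Lhx1, supplies the dorsal ones. Hox proteins with their cofactors Meis, Pbx and Foxp1 set the identity of column and pool, and retinoic acid, made by Aldh1a2 in limb-level motor neurons, acts on how these neurons are specified. EDL is a dorsal muscle of the leg and the muscles of the sole are ventral ones, so that the division of the column and the muscle cannot be told apart in this pair.

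The gene counts summed to 8411260, 7969901 and 7085025 in EDL 1 to 3, and to 8258781, 6640193 and 5757374 in IF 1 to 3. Reads fell on 14179, 15320 and 15247 genes in the EDL libraries, against 17321, 16728 and 16637 in the IF libraries, and so fewer genes were seen in every EDL library at a like depth. The EDL libraries also differed more among themselves. Their rank correlations over the tested genes were between 0.845 and 0.890, against 0.954 to 0.961 within IF. The median SD of log2(CPM + 1) over 3 libraries was 0.52 in EDL and 0.24 in IF, for the 9725 genes with at least 10 CPM in a pool. Levels in the text are reads per 1000000 counts of a library (CPM), scaled with TMM, and they compare a gene between libraries, not genes with each other. In pooled cells, fewer neurons that express a gene and less RNA in each neuron cannot be told apart.

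Both pools held the RNA of cholinergic motor neurons. Slc5a7, the choline transporter of cholinergic terminals, was at 723, 774 and 716 CPM in the EDL libraries and at 735, 706 and 714 CPM in the IF libraries. Chat, which makes acetylcholine, was at 66.2, 153 and 123 CPM in EDL and at 84.3, 80.3 and 85.2 CPM in IF. For both genes the pools overlapped. Mnx1, a homeodomain factor of motor neurons, was low, with 6.0 to 11.2 CPM in EDL and 3.18 to 4.68 CPM in IF, and the neurofilament gene Nefm had 16119 to 29860 CPM in EDL and 15981 to 21646 CPM in IF.

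Of the 14340 genes tested, 29 (0.202%) differed between EDL and IF, 15 (0.105%) higher and 14 (0.0976%) lower in EDL, by edgeR's quasi-likelihood test on all 15 libraries with Benjamini-Hochberg adjustment and a threshold of 0.05. The adjusted p-values below are from this test, and a gene is called where it passed. In each of the 29 the 3 EDL libraries lay wholly apart from the 3 IF libraries. Over all tested genes, the libraries lay apart with EDL higher in 11.7% and with IF higher in 13.5%, or 25.2% in all. The unadjusted p of the same test was under 0.05 for 646 genes (4.5%). That share is no larger than the one to be looked for if no gene differed. In PL 2 and PL 3, 25.7% and 29.2% of these tested genes had no read. Without these 2 libraries the same test called 68 of 16385 genes. A fit of the 6 EDL and IF libraries alone, whose spread was not shared with the other pools, called 403 of 13519 genes (2.98%), 232 higher (1.72%) and 171 lower (1.26%), and the 29 were among them. Genes named below with no call, or with a call in the 6-library fit alone, were mostly picked from the lists after their values were seen. The median log2 fold change, EDL over IF, was 0.05 over all tested genes, with 7552 genes above 0 and 6784 below.

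**Figure D1:**
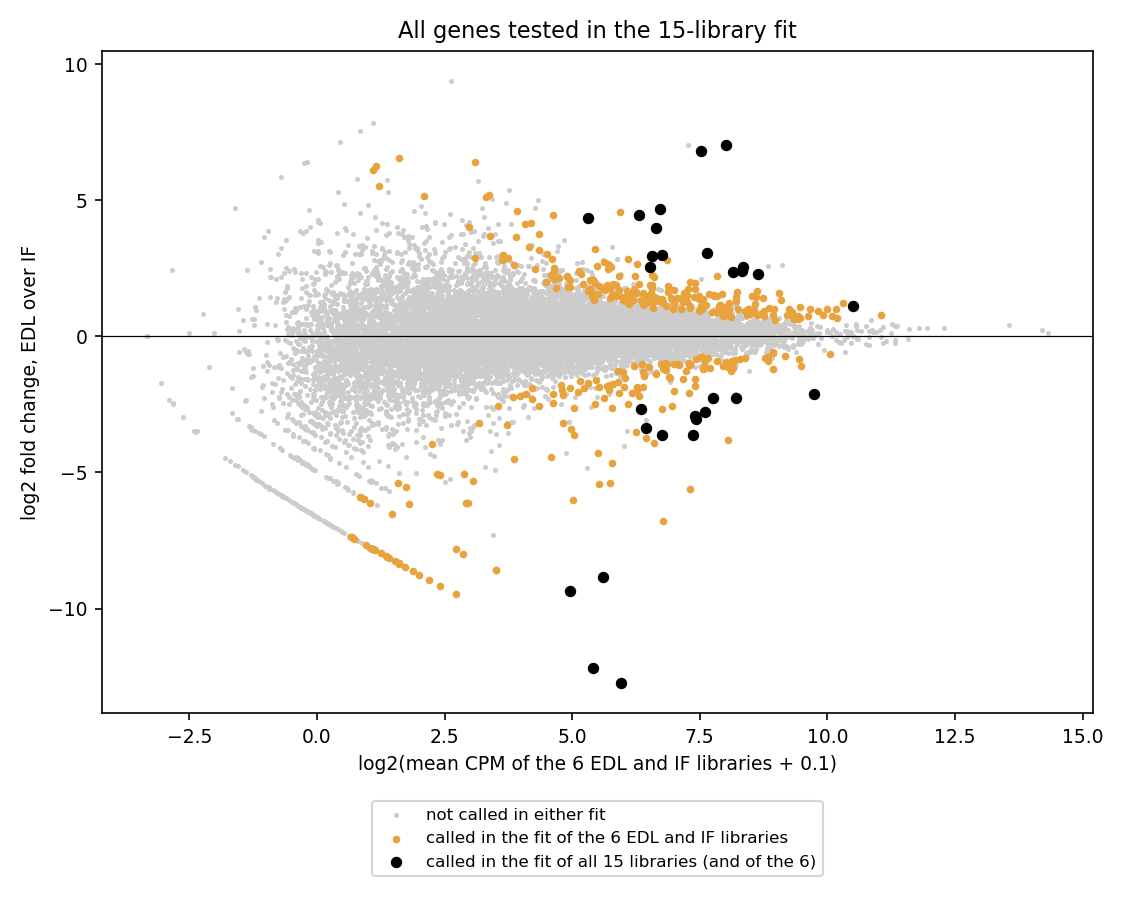
Log2 fold change, EDL over IF, against log2 of the mean CPM of the 6 libraries plus 0.1, 1 point per gene tested in the 15-library fit. Black points are the 29 genes called in that fit, orange points those called in the 6-library fit alone, and the line of points at the lower left holds genes with no read in EDL, whose fitted size depends on the fit.

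Of the 5 genes named as markers of these pools, Nts, Aldh1a2, Meis2 and Sox6 were called higher and Crabp2 lower in EDL. Nts, the precursor of the peptide neurotensin, was at 599, 486 and 458 CPM in the EDL libraries, against 2.24, 5.12 and 4.48 CPM in the IF libraries, a log2 fold change of 7.02 ± 0.52 (SE, n = 3 each; edgeR adjusted p = 5.93e-07). Aldh1a2, which turns retinaldehyde into retinoic acid, was at 371, 382 and 341 CPM in EDL, against 3.77, 4.37 and 1.45 CPM in IF, a log2 fold change of 6.82 ± 0.52 (edgeR adjusted p = 5.93e-07). These were the called genes with the largest fitted rise in EDL, by 130-fold for Nts and 113-fold for Aldh1a2. Crabp2, which carries retinoic acid to its nuclear receptors, had the opposite pattern. It had no read in any EDL library and 122, 125 and 126 CPM in the IF libraries, and so was at least 1053-fold lower in EDL, set against a floor of 3 reads over the pool (edgeR adjusted p = 0.00351). On the build mm9 these genes lie at chr10:101944394-101953052 (Nts, minus strand), chr9:71063596-71144050 (Aldh1a2, plus strand) and chr3:87752588-87757298 (Crabp2, plus strand).

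**Figure D2:**
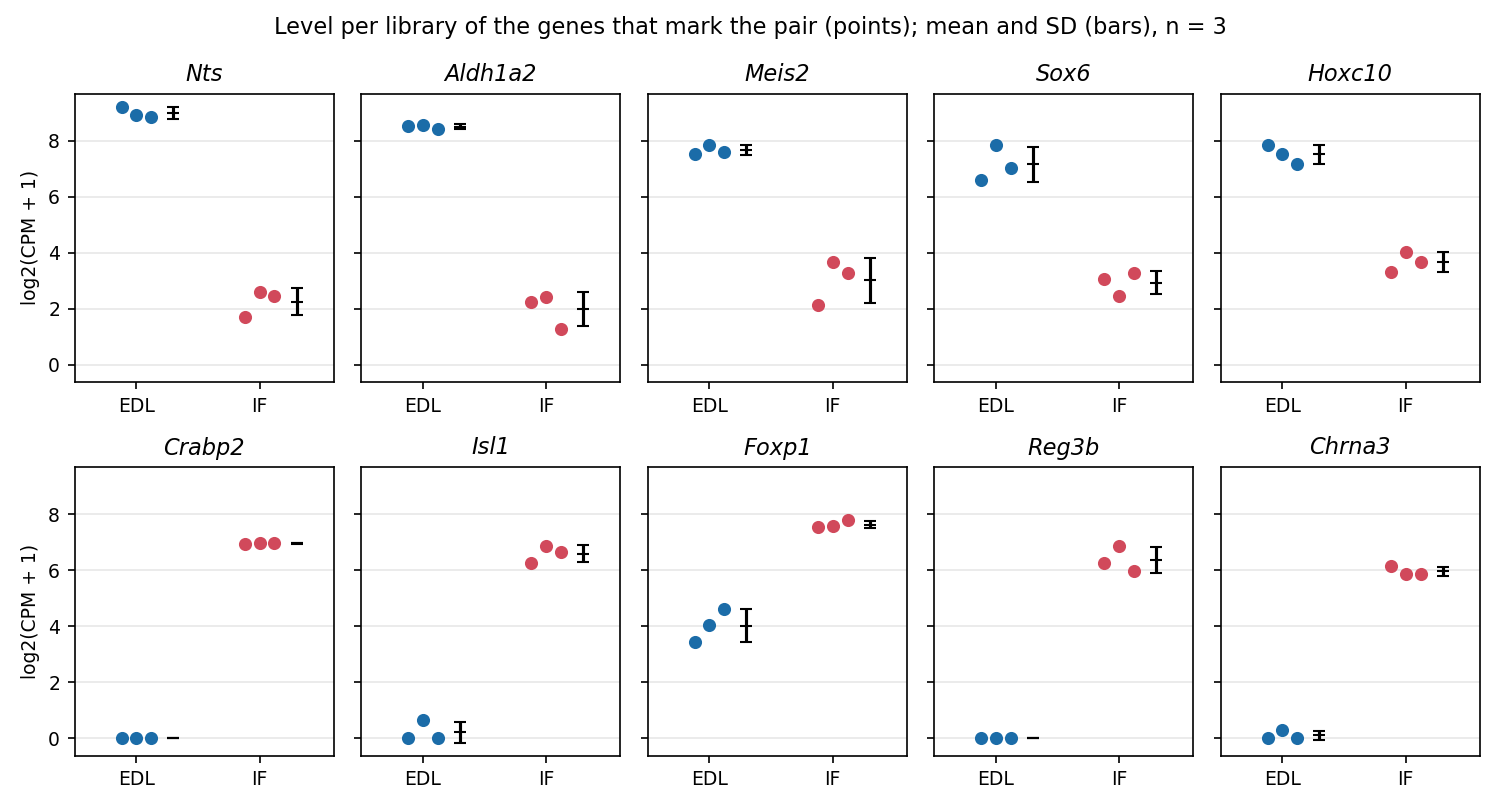
Log2(CPM + 1) of 10 called genes in the 3 EDL libraries (left) and the 3 IF libraries (right), with the mean and SD of 3 libraries beside the points. The pools do not overlap in any panel, and Crabp2 and Reg3b stand at 0 in the 3 EDL libraries.

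Upstream sequence is shown for the called genes with the largest rises in EDL, Nts and Aldh1a2, and for 2 secreted-peptide genes that changed in opposite directions and share a motif, Scg2 (higher in EDL) and Sst (lower in EDL). Each line holds the 250 bases before the transcription start, 5′ to 3′ on the strand of the gene, from the RefSeq promoter table of GRCm38.p6, and the capitals mark the cAMP response element TGACGTCA. The Nts stretch lies at chr10:102490419-102490668 on the minus strand, the Aldh1a2 stretch at chr9:71215539-71215788 on the plus strand, the Scg2 stretch at chr1:79440027-79440276 on the minus strand and the Sst stretch at chr16:23890845-23891094 on the minus strand.
Nts: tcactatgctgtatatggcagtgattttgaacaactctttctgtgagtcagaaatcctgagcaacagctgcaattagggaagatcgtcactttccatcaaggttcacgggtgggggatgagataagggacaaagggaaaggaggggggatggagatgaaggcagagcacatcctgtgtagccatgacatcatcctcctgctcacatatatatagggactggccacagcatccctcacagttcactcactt
Aldh1a2: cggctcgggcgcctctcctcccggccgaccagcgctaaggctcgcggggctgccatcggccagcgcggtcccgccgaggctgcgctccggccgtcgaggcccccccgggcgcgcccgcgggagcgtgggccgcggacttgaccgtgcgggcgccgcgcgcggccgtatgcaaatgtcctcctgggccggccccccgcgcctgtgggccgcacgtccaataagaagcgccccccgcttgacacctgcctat
Scg2: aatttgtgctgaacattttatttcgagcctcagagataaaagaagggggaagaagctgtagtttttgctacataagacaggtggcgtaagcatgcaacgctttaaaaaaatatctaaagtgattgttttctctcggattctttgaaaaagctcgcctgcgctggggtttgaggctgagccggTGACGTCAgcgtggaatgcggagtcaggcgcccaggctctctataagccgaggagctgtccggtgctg
Sst: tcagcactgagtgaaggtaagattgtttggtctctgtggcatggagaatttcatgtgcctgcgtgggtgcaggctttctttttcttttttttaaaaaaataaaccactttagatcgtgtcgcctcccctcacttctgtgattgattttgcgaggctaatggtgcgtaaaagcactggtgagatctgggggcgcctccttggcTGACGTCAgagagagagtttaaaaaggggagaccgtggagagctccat

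The element begins 68 bases before the start in Scg2 and 48 bases before it in Sst. Of the 29 called genes, 26 matched the table, Hoxc10, Crabp2 and Trhr not being in it. The 250-base window held TGACGTCA, which reads the same on both strands, in 2 of the 26 and in 1.55% of the 32851 promoters of the table. The Meis hexamer TGACAG, on either strand, was in 7 of the 26 and in 15.9% of all promoters. The nuclear receptor half-site AGGTCA, on either strand, was in 4 of the 26 and in 14% of all promoters. No one of these motifs contains another, and the Nts and Aldh1a2 windows held none of the 3.

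Among the retinoid genes an enzyme was higher in EDL and a binding protein higher in IF. Of 19 genes of retinoid synthesis, breakdown and binding, 15 were tested, and 1 (Aldh1a2) was called higher and 1 (Crabp2) lower in EDL, in the 15-library and in the 6-library fit. The median log2 fold change of the 15 was 0.60. Aldh1a1, another enzyme that makes retinoic acid, was at 0, 2.38 and 20.1 CPM in EDL and at 91.4, 173 and 99.8 CPM in IF, without a call. The breakdown enzymes Cyp26a1, Cyp26b1 and Cyp26c1 were at or under 2.60 CPM in each of the 6 libraries and were not tested. The receptor genes Rara and Rxra overlapped between the pools, Rxra at 35.2, 136 and 130 CPM in EDL and at 35.9, 39.7 and 33.7 CPM in IF.

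Hox genes of lumbar levels lay on both sides. Hoxc10, a Hox gene of lumbar motor neurons, was at 231, 186 and 143 CPM in EDL, against 8.86, 15.2 and 11.7 CPM in IF, a log2 fold change of 3.97 ± 0.54 (edgeR adjusted p = 0.00258). It was the sole call among 16 tested genes of the list of 20, whose median log2 fold change was -0.28. Hoxd11, a gene further along its cluster, was at 2.55, 1.47 and 2.26 CPM in EDL and at 47.9, 44.1 and 45.1 CPM in IF. The 3 libraries of each pool lay far apart, yet the log2 fold change of -4.44 ± 1.34 did not pass in the 15-library fit (edgeR adjusted p = 0.499). Hoxd11 passed in the 6-library fit and in the fit without PL 2 and PL 3. In PL 1 to 3 it was at 3.57, 0.639 and 83.0 CPM. Hoxd10 lay lower in EDL as well, at 16.1, 22.2 and 59.2 CPM against 86.7, 92.6 and 91.6 CPM in IF, with a call in neither fit (edgeR adjusted p = 1 in the 15-library fit).

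Meis2 and Sox6 stood on the EDL side. Meis2, a homeodomain partner of Hox proteins, was at 182, 232 and 194 CPM in EDL, against 3.36, 11.7 and 8.68 CPM in IF, a log2 fold change of 4.68 ± 0.71 (edgeR adjusted p = 0.00448). It was the one call among 9 tested Meis and Pbx genes, with a median of 0.41. Its relative Meis1 had the opposite order without a call, at 14.2, 19.5 and 21.6 CPM in EDL and 50.3, 35.2 and 52.1 CPM in IF, and Pbx3 overlapped. Sox6, a transcription factor of the SoxD group, was at 96.7, 230 and 128 CPM in EDL, against 7.43, 4.50 and 8.68 CPM in IF, a log2 fold change of 4.46 ± 0.61 (edgeR adjusted p = 0.00258). Sox5, the other well-studied SoxD gene, overlapped between the pools and was not called, and Sox6 was the one call among 6 tested genes of its list.

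Of the factors that mark motor columns, Isl1 and Foxp1 were called lower in EDL. Isl1, the LIM homeodomain factor of the medial division, had 0, 5 and 0 reads in the EDL libraries, or 0, 0.566 and 0 CPM, against 76.1, 115 and 100 CPM in IF. Its log2 fold change was -8.85 ± 1.30 (edgeR adjusted p = 0.00637). That size rests on the 5 reads of EDL 2 and ran from -12.4 to -8.33 over 24 alternative settings. Lhx1, the LIM homeodomain factor of the lateral division, was at 2.20, 21.8 and 15.1 CPM in EDL and at 0.713, 0 and 2.17 CPM in IF. The lowest EDL library lay just above the highest IF library, and Lhx1 was not called in either fit (edgeR adjusted p = 1 in the 15-library fit). Foxp1, the Hox cofactor of limb-innervating motor neurons, was at 9.73, 15.4 and 23.6 CPM in EDL, against 187, 189 and 221 CPM in IF, a log2 fold change of -3.62 ± 0.55 (edgeR adjusted p = 0.00448). The 9 other libraries had 39.0 to 219 CPM of Foxp1, so that EDL was the low pool. Foxp1 overlaps Eif4e3 on the same strand, which had 158 reads in EDL and 218 in IF, against 408 and 4877 reads of Foxp1.

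Of 22 tested genes of motor columns and pools, 2 were called lower (Isl1 and Foxp1) and none higher in EDL, with a median of -0.65. The 6-library fit called 6 lower, adding Pou3f1, Cpne4, Onecut2 and Fign. Pou3f1, a POU factor, had 0, 0 and 1 read in EDL and 22.2, 22.7 and 23.0 CPM in IF, a count ratio of 575 in favour of IF with a 95% counting interval of 103 to 22750 (edgeR adjusted p = 0.254). The table lists Pou3f1 under 2 gene identifiers with the same counts. Cpne4, a calcium-binding copine, was at 4.29, 0.339 and 1.25 CPM in EDL and at 196, 234 and 223 CPM in IF (edgeR adjusted p = 0.0983 in the 15-library fit). Cpne4 passed in 10 of 24 alternative settings, with adjusted p between 3.21e-06 and 0.526. Onecut2, a homeodomain factor, was at 15.7 to 27.5 CPM in EDL and 71.7 to 88.2 CPM in IF.

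**Figure D3:**
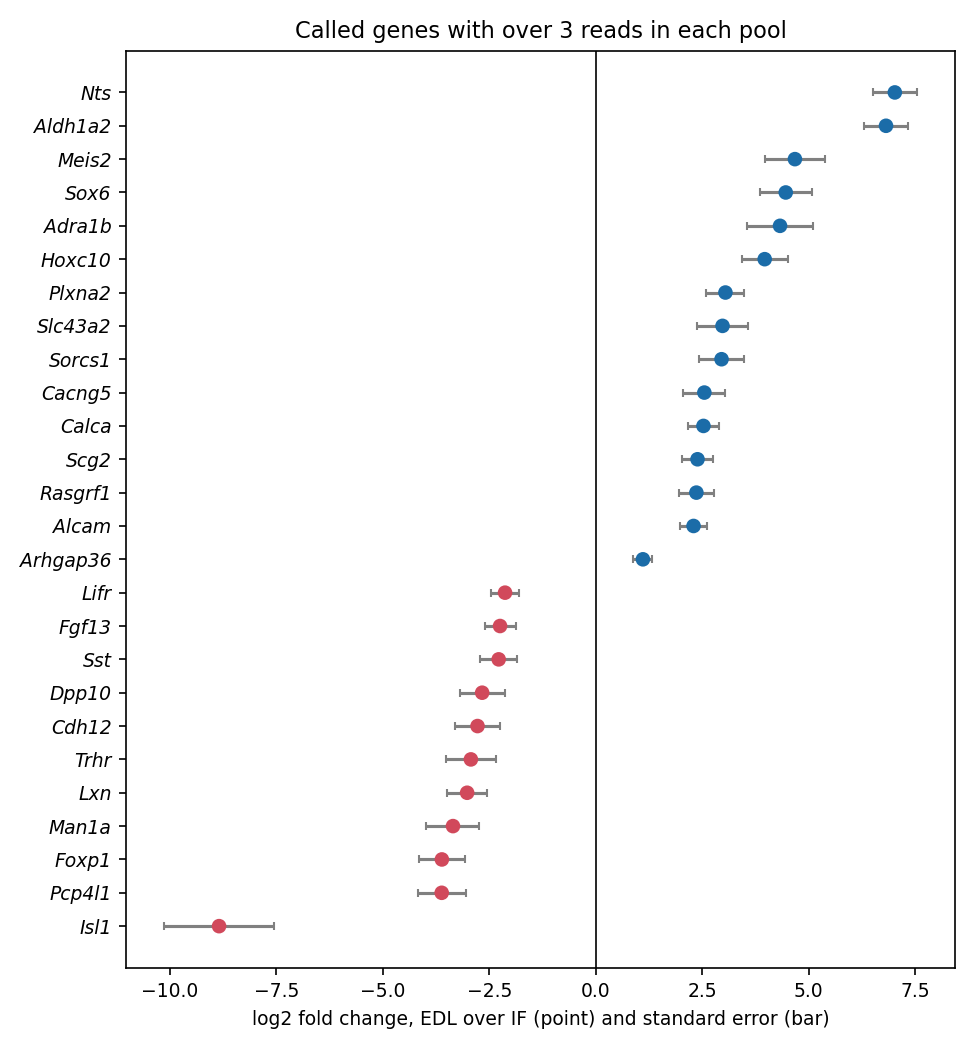
Log2 fold change, EDL over IF, of the 26 called genes with over 3 reads in each pool (points), with its standard error (bars), from the 15-library fit. Blue points are higher and red points lower in EDL, and Crabp2, Reg3b and Chrna3, with 0 to 2 reads in EDL, are left out because their fitted size depends on the fit. The size of Isl1, with 5 reads in EDL, is shown but depends on the fit as well.

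Neuropeptide genes held 4 of the 29 calls and went both ways. Calca, which encodes calcitonin gene-related peptide, was at 572, 451 and 642 CPM in EDL, against 93.7, 116 and 78.3 CPM in IF, a log2 fold change of 2.53 ± 0.36 (edgeR adjusted p = 0.00296). Scg2, a granin of dense-core vesicles, was at 730, 413 and 465 CPM in EDL, against 80.2, 120 and 107 CPM in IF, a log2 fold change of 2.39 ± 0.37 (edgeR adjusted p = 0.00499), and lost its call without IF 1. Sst, the precursor of somatostatin, was lower in EDL. It was at 108, 55.3 and 58.0 CPM in EDL, against 287, 467 and 322 CPM in IF, a log2 fold change of -2.28 ± 0.44 (edgeR adjusted p = 0.0320). The Sst call was lost without any 1 of EDL 2, EDL 3, IF 1, IF 2, IF 3 and TA 1.

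With Nts, 3 of 23 tested precursors were called higher in EDL and 1 lower, and their median was -0.81. The 6-library fit added Vgf on the EDL side and Tac1, Gal, Crh and Pnoc on the IF side. Tac1, which encodes substance P, was at 0, 2.60 and 0.251 CPM in EDL and at 53.7, 83.0 and 53.1 CPM in IF (edgeR adjusted p = 0.450 in the 15-library fit). Gal, the precursor of galanin, had no read in EDL and 2.34, 7.0 and 5.93 CPM in IF, and was at least 41.1-fold lower in EDL against the floor of 3 reads. Vgf, a secreted protein of dense-core vesicles, was at 198, 184 and 154 CPM in EDL and at 61.2, 52.5 and 58.4 CPM in IF. Tac1, Gal and Crh had at most 2.60 CPM in any EDL library.

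**Figure D4:**
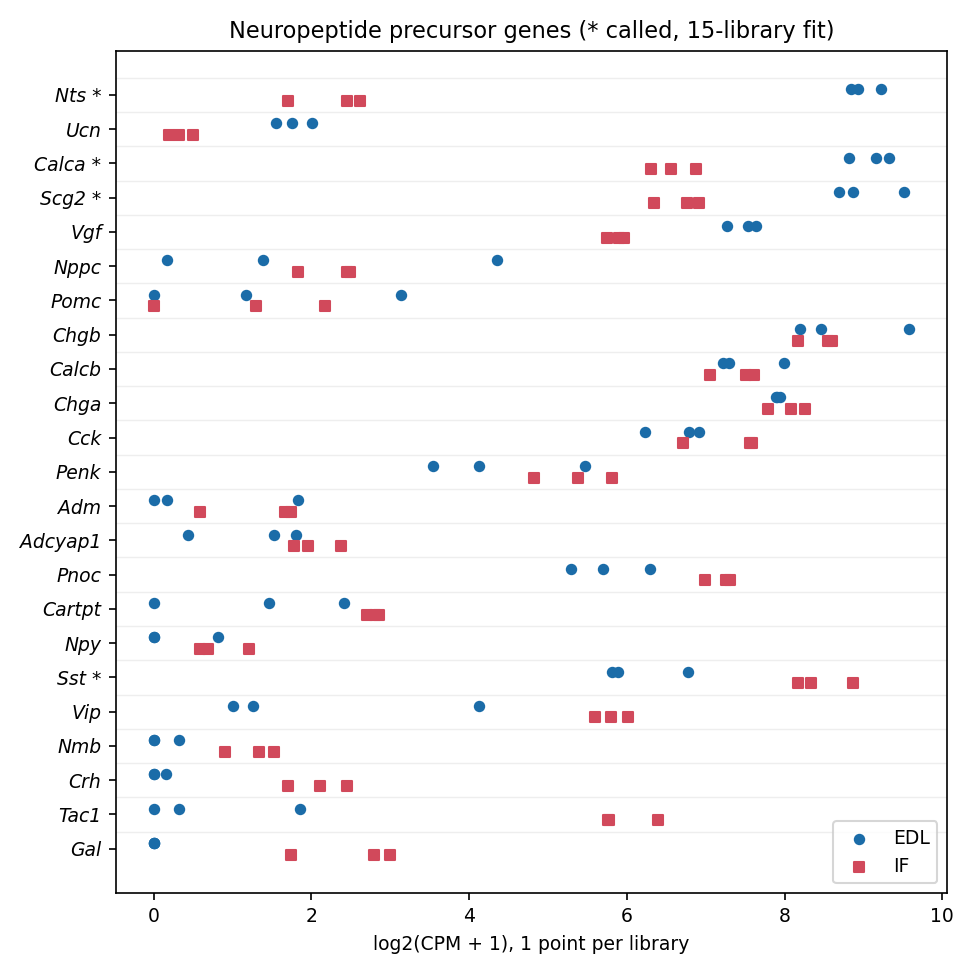
Log2(CPM + 1) of the 23 tested neuropeptide precursor genes in each EDL library (circles, upper row of a gene) and each IF library (squares, lower row), ordered by log2 fold change. Asterisks mark the 4 called genes, and Nts has the widest gap on the EDL side.

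Receptors for amines and peptides gave 1 call each way among 33 tested genes, with a median of -0.08. Adra1b, the alpha-1B adrenergic receptor, was at 98.6, 71.2 and 58.0 CPM in EDL, against 3.87, 5.37 and 2.03 CPM in IF, a log2 fold change of 4.33 ± 0.77 (edgeR adjusted p = 0.0180). Without EDL 1, EDL 2 or any IF library its call was lost. Trhr, the receptor of thyrotropin-releasing hormone, was at 33.4, 27.4 and 56.3 CPM in EDL, against 274, 341 and 280 CPM in IF, a log2 fold change of -2.93 ± 0.59 (edgeR adjusted p = 0.0482). The Trhr call was lost without any single EDL, IF or GS library and without TA 1 or TA 2. The 6-library fit added Adra1a and Adcyap1r1, both higher in EDL.

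Of the cholinergic genes, the nicotinic subunit gene Chrna3 fell in EDL, and it was the one call among 13 tested. It had 2 reads in EDL, both in EDL 2, and 70.2, 57.7 and 57.4 CPM in IF, a count ratio of 796 in favour of IF with a 95% counting interval of 220 to 6579 (edgeR adjusted p = 0.0188). Its call was lost without any single EDL or IF library. Chrna5, whose gene lies in the same cluster as Chrna3, was at 2.15 to 3.01 CPM in EDL and 8.54 to 12.9 CPM in IF without a call. Reg3b, a secreted lectin in no list, had no read in EDL and 75.6, 116 and 61.8 CPM in IF. Reg3b was at least 718-fold lower in EDL against the floor of 3 reads (edgeR adjusted p = 0.0180), had no read in the 9 other libraries, and lost its call without any single EDL or IF library. Tested genes with no read made up 8.59%, 4.16% and 4.0% in EDL 1 to 3, against 0.732%, 1.21% and 1.38% in IF 1 to 3, and the part of this in the genes at or near 0 in EDL was not tested.

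Axon guidance and adhesion genes gave 3 calls. Plxna2, a semaphorin receptor, was at 346, 364 and 355 CPM in EDL, against 49.1, 41.4 and 38.5 CPM in IF, a log2 fold change of 3.05 ± 0.45 (edgeR adjusted p = 0.00356), and was the one call among 29 tested semaphorins, plexins and neuropilins. Alcam, an immunoglobulin adhesion molecule of motor axons, was at 975, 621 and 398 CPM in EDL, against 111, 152 and 143 CPM in IF, a log2 fold change of 2.30 ± 0.33 (edgeR adjusted p = 0.00296). It was the one call among 28 tested immunoglobulin and leucine-rich adhesion genes. Cdh12, a type II cadherin, was at 41.8, 50.4 and 56.6 CPM in EDL, against 307, 384 and 329 CPM in IF, a log2 fold change of -2.78 ± 0.52 (edgeR adjusted p = 0.0260). It was the one call among 14 tested cadherins, and was lost without any single EDL or IF library. The medians of the 3 lists were 0.15, 0.25 and 0.43. No member passed among 17 tested Eph receptors and ephrins (median -0.46), 19 netrin, Slit and repulsive guidance genes (0.20) or 28 heparan sulfate genes (0.15). In the 6-library fit these 3 lists had 1, 2 and 2 calls. One was Unc5c, a netrin receptor, at 86.3, 33.6 and 59.5 CPM in EDL and 245, 268 and 245 CPM in IF.

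Among neurotrophic factors and receptors, Lifr, the receptor subunit shared by leukemia inhibitory factor and ciliary neurotrophic factor, fell in EDL. It was at 343, 348 and 263 CPM in EDL, against 1471, 1268 and 1438 CPM in IF, a log2 fold change of -2.13 ± 0.34 (edgeR adjusted p = 0.00499), with the call lost without EDL 3. It was the one call among 20 tested genes (median -0.28). The 6-library fit also called Igf1, Osmr and Gfra3 lower and Gfra2 higher in EDL. Igf1, a growth factor, was at 2.66, 0.679 and 15.6 CPM in EDL and at 201, 363 and 364 CPM in IF (edgeR adjusted p = 0.0898 in the 15-library fit), and passed in 7 of 24 alternative settings, with adjusted p between 2.83e-08 and 0.512. Osmr, the oncostatin M receptor of the same cytokine family as Lifr, was at 12.2, 20.4 and 3.76 CPM in EDL and at 160, 187 and 141 CPM in IF. Gfra3, a receptor for artemin, had no read in EDL and 8.45, 14.4 and 16.2 CPM in IF, at least 106-fold lower in EDL against the floor of 3 reads.

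Ion channel genes gave few calls. Cacng5, an auxiliary subunit of AMPA receptors, was the one call among 36 tested sodium, calcium and HCN channel genes (median 0.13). It was at 195, 137 and 138 CPM in EDL, against 31.2, 21.4 and 27.6 CPM in IF, a log2 fold change of 2.55 ± 0.50 (edgeR adjusted p = 0.0364). Its call was lost without any single EDL, IF or GS library and without TA 1 or TA 2. None of 55 tested potassium channel genes passed in the 15-library fit (median 0.56), and the 6-library fit called 5 higher and 3 lower in EDL. Kcnip4, a subunit of A-type channels, was lower in EDL in every library, at 1.27, 6.0 and 28.5 CPM against 170, 193 and 180 CPM in IF (edgeR adjusted p = 0.0796 in the 15-library fit). Its relative Kcnip1 had the opposite order, at 342, 311 and 320 CPM in EDL and 115, 125 and 101 CPM in IF (edgeR adjusted p = 0.0727). Kcnk3, a background channel, was at 556, 288 and 292 CPM in EDL and at 94.7, 77.6 and 70.2 CPM in IF (edgeR adjusted p = 0.0727). Dpp10, another partner of A-type channels, was in no list and was called. It was at 24.1, 28.3 and 13.5 CPM in EDL, against 126, 177 and 116 CPM in IF, a log2 fold change of -2.67 ± 0.53 (edgeR adjusted p = 0.0430), and its call was lost without any single EDL, IF or GS library and without TA 1. No call was made among 41 tested glutamate, GABA and glycine receptor genes (median 0.08; 1 higher and 3 lower in the 6-library fit).

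In the list of alpha and gamma motor neuron markers, Calca was the one call among 15 tested genes (median 0.44). Rbfox3, whose protein NeuN is high in alpha and low in gamma motor neurons, was at 204, 210 and 287 CPM in EDL and at 168, 108 and 140 CPM in IF. Esrrg, a nuclear receptor high in gamma motor neurons, was at 157, 241 and 219 CPM in EDL and at 242, 328 and 333 CPM in IF. Neither gene was called. Esrrb, its relative, was called in the 6-library fit alone, at 36.1, 41.8 and 41.0 CPM in EDL and 6.52, 8.25 and 9.98 CPM in IF. No call was made among 15 tested genes of neurofilaments and the axonal cytoskeleton or 19 of calcium-binding and copine genes, with medians of 0.13 and 0.10. The 6-library fit called 2 and 3 in these lists.

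The remaining calls were genes in no list. Higher in EDL were Slc43a2, an amino acid transporter, Sorcs1, a sorting receptor, Rasgrf1, an exchange factor for Ras, and Arhgap36, an inhibitor of protein kinase A. Rasgrf1 was at 428, 498 and 504 CPM in EDL, against 96.1, 111 and 70.3 CPM in IF, a log2 fold change of 2.36 ± 0.41 (edgeR adjusted p = 0.0145). Arhgap36 had the smallest called difference, 1.11 ± 0.22 on the log2 scale, with 1963, 2025 and 1939 CPM in EDL, against 963, 906 and 882 CPM in IF (edgeR adjusted p = 0.0482). The fold changes of Slc43a2 and Sorcs1 were 2.98 ± 0.60 and 2.95 ± 0.53 on the log2 scale (edgeR adjusted p = 0.0482 and 0.0188). Calls were lost without any single IF library for all 4. They were also lost without EDL 2 or EDL 3 for Rasgrf1, without EDL 1 or EDL 2 for Sorcs1 and without any EDL library for Slc43a2 and Arhgap36. Without any GS library or PL 1 that of Slc43a2 was lost, and without GS 2, GS 3 or any TA library that of Arhgap36.

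Lower in EDL and in no list were Pcp4l1, a relative of the calmodulin regulator Pcp4, Man1a, a mannosidase of the Golgi, Lxn, an inhibitor of carboxypeptidases, and Fgf13, a partner of sodium channels. Lxn was at 35.3, 42.5 and 35.9 CPM in EDL, against 284, 329 and 311 CPM in IF, a log2 fold change of -3.02 ± 0.48 (edgeR adjusted p = 0.00499). Lxn overlaps Gfm1 on the other strand, and Gfm1 had 2065 reads in EDL and 2965 in IF, so that reads of the pair could not be told apart by strand. Pcp4l1 was at 35.8, 14.6 and 24.3 CPM in EDL, against 265, 367 and 287 CPM in IF (-3.62 ± 0.57 on the log2 scale; edgeR adjusted p = 0.00499). Fgf13 was at 84.5, 145 and 79.9 CPM in EDL, against 485, 466 and 518 CPM in IF (-2.25 ± 0.36; edgeR adjusted p = 0.00637), and Man1a at 4.40, 19.7 and 22.2 CPM against 135, 183 and 155 CPM (-3.35 ± 0.62; edgeR adjusted p = 0.0241). Without EDL 1 or EDL 3 the calls of Lxn and Fgf13 were lost, without EDL 2 or EDL 3 that of Pcp4l1, and without any single EDL or IF library that of Man1a. Nts, Aldh1a2, Meis2, Sox6, Hoxc10, Plxna2, Calca, Alcam, Crabp2, Isl1 and Foxp1 were the 11 genes that kept their call without any 1 of the 15 libraries.

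Set among all 15 libraries, the called genes had the IF libraries at an extreme more often than the EDL libraries. The same count was not made over all tested genes, so it does not show a trait particular to the called genes. In 11 of the 15 genes higher in EDL, the 3 IF libraries lay below the other 12, and in 1, Nts, the 3 EDL libraries lay above the other 12. Of the 14 genes lower in EDL, the 3 IF libraries lay above the other 12 in 7, and the 3 EDL libraries lay below the other 12 in 3, Foxp1, Fgf13 and Man1a. Libraries that lie close together pass this rule more readily, and the median SD given above was 0.24 in IF and 0.52 in EDL. The part of that spread in these counts was not tested. Isl1 averaged 0.189 ± 0.327 CPM in EDL and 97.1 ± 19.6 CPM in IF (SD, n = 3), and 66.1 ± 24.3 CPM in GS, with no read in TA and PL. Chrna3 averaged 35.4 ± 12.3 CPM in GS, 0.232 ± 0.093 CPM in TA and 1.19 ± 2.06 CPM in PL. Alcam was low in GS as in IF, at 147 ± 25.8 CPM, and Aldh1a2 was at 292 ± 159 CPM in GS. These levels describe the pools and were not tested.

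The summed levels of several lists of markers of other cell types were higher in EDL, and none of their genes was called in the 15-library fit. The 18 oligodendrocyte markers, 16 of them tested, summed to 660, 671 and 966 CPM in EDL and to 390, 401 and 408 CPM in IF, with 11 of the 16 above 0 and a median log2 fold change of 0.97. Mbp, a myelin protein, was at 258, 179 and 373 CPM in EDL and 91.3, 56.1 and 58.7 CPM in IF and was called in the 6-library fit, while Mog was at or near 0 in both pools. The 12 astrocyte markers summed to 2902 to 3429 CPM in EDL and 2082 to 2372 CPM in IF, with 9 of 12 tested above 0 and a median of 0.28, and Slc1a2, a glutamate transporter, was called in the 6-library fit. The potassium channel gene Kcnj10, which glia express, was likewise higher in EDL in every library without a call in the 15-library fit, at 203 to 350 CPM in EDL and 70.5 to 85.8 CPM in IF. The 14 interneuron markers summed to 150 to 230 CPM in EDL and 35.8 to 72.8 CPM in IF, in EDL mostly from Slc17a6 and Slc6a5, with no read of Gata3 and Lbx1 in either pool, and 3 of the 5 tested lay above 0 (median 1.05). The 8 fibroblast markers summed to 101 to 258 CPM in EDL and 41.4 to 60.1 CPM in IF, in EDL mostly from Dcn, which was at 70.9, 195 and 86.7 CPM in EDL and 3.26, 10.2 and 1.30 CPM in IF. Of the 6 tested fibroblast markers, 2 lay above 0 and 4 below, with a median of -0.34. Slc17a6 and Dcn were also called in the 6-library fit, both higher in EDL. Over all 14340 tested genes, 7552 lay above 0 and 6784 below. The sums of microglial, endothelial and red blood cell markers overlapped. Of the 12 tested endothelial and pericyte markers, 8 lay above 0 and 4 below, with a median of 0.66. The one with the smallest p, Ly6c1, was at 15.2, 30.6 and 9.16 CPM in EDL and 0.102, 0.625 and 1.88 CPM in IF. Ly6c1 was called in neither fit. Of the sensory neuron and Schwann cell markers, Scn10a had no read in either pool, and Pmp22 was at 330 to 564 CPM in EDL and 273 to 316 CPM in IF. The part of these cells in the called genes was not tested.

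**Figure D5:**
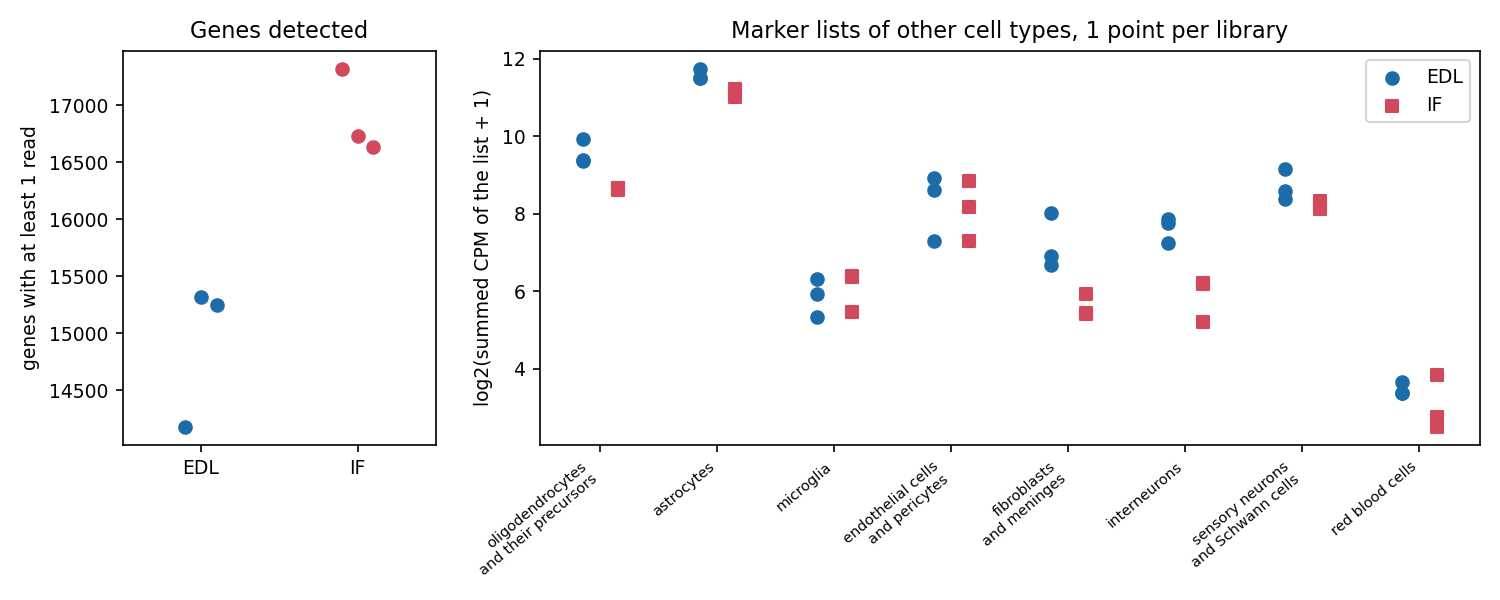
Left, genes with at least 1 read in each EDL library (left) and each IF library (right); the axis does not start at 0. Right, log2 of the summed CPM plus 1 of each list of markers of other cells, with EDL as circles and IF as squares. The oligodendrocyte, astrocyte, fibroblast and interneuron sums are higher in all 3 EDL libraries, and so is the sensory neuron and Schwann cell sum, nearly all of it Pmp22. The fibroblast sum of EDL is mostly from Dcn, while 4 of 6 tested members lay below 0.

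The authors' deposited table of genes higher in EDL than in IF held 80 genes, and the 15 called here were all among them, 18.75% of that list. Their table of genes higher in IF than in EDL held 44, with all 14 called here, 31.8% of that list. The 6-library fit shared 60 of the 80 (75.0%, and 25.9% of its own 232) and 37 of the 44 (84.1%, and 21.6% of its own 171). The largest DESeq adjusted p was 0.0072 in the authors' list of genes higher in EDL and 0.006544 in that of genes higher in IF. Both lie well below the threshold of the calls made here, so the shares compare lists that end at unlike adjusted p-values. The lists rest on the same counts and are not independent of each other.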

How the data were processed

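RNA of traced motor neurons was sequenced per the labels with the Ovation RNA-Seq System V2 and Nextera, which does not mark strand, to 25 to 30 M single-end reads. The authors deposited unnormalized counts for each gene. Alignment was with Bowtie 0.12.9 to mm9, per the submitters' processing notes, and how reads were assigned to genes is not given in the sources used here. Columns of the IF samples carry the word foot. The deposited counts, whose unit is set down as other, held 16 cells below 0 in 4 of 36814 genes, and these 4 genes were left out. The authors' deposited lists give a ratio (fold, IF over EDL), p-values and mean normalized counts (a signal), per the submitters' processing notes from DESeq; they were used for overlaps only.

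Genes were kept by filterByExpr (14340) and tested with edgeR 4.0.16 (R 4.3.3): TMM scaling, 1 coefficient per pool, all 15 libraries in 1 fit with a shared spread, quasi-likelihood F-test, Benjamini-Hochberg adjustment, threshold 0.05. SE is the log2 fold change divided by √F. Alternatives used DESeq2 1.42.0, limma 3.58.1, other filters, the 6 libraries, the replicate number as a block, and each library left out. A pool at 0 was set at 3 reads; count ratios have 95% intervals, and these bounds hold for counting error alone, as amplified copies of a molecule are not independent. Named genes were the 5 pool markers, up to 15 called genes per direction by size with libraries apart and at least 10 CPM, up to 5 called genes of each list or else its smallest p, and 9 identity genes. Not every smallest-p gene is given in the text, and other uncalled genes of the lists were added after their values were seen. The script was tested on simulated data. Members and lists were chosen with earlier results of these data known.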

Additional observations from a re-analysis of the deposited data

How the results depend on the processing

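The count of called genes depended on the fit more than on the scaling. Against 29 (15 higher and 14 lower in EDL), the 6-library fit called 403, DESeq2's Wald test 96 (50 higher), limma voom 86 (20 higher, 66 lower), a fit with no filter on low counts 63, and a fit without PL 2 and PL 3 68. With DESeq2's size factors in edgeR and with a stricter filter it was 29 each. Without each single library the count ran from 15 to 44, and was 15 or 16 without any 1 of the EDL and IF libraries. The number of called list members was 19, against 74 in the 6-library fit, 33 by DESeq2, 29 by voom, 31 with no filter and 32 without PL 2 and PL 3, and 12 to 24 without each single library. Of the 29 calls, DESeq2 made 28 (not Reg3b), voom 24 (not Hoxc10, Sst, Cacng5, Slc43a2 and Dpp10), the stricter filter 28 (not Arhgap36) and the fit without PL 2 and PL 3 all 29.

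Deviations of same-numbered EDL and IF libraries correlated at 0.0051, 5e-04 and -0.0148, and those of differently numbered ones at -0.0136 to 0.016. With 3 libraries a pool and no animals named in the labels, these values cannot show whether the libraries are paired. With the replicate block, 26 genes were called over 15 libraries (24 of the 29 among them, without Arhgap36, Cacng5, Dpp10, Slc43a2 and Reg3b, and 20 list members) and 206 in the 6-library fit (53 list members).

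Over 24 alternatives, the 29 called genes kept their side of the threshold in 578 of 696 repeats. The loss of 118 calls had causes that were not tested. The direction of the called genes was the same in all 696. These settings could hardly turn it, as they reuse the same counts and the 2 pools lay apart in each called gene. One uncalled gene reversed, Slc5a7, from 0.04 on the log2 scale to -0.0176 without EDL 2, within a range up to 0.039 without the other single libraries. Genes with 3 or fewer reads in both pools give no fold at this depth.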

Other observations

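The cytosolic ribosomal protein genes lay mostly on the IF side. Of 65 tested, 54 had a log2 fold change below 0 and 11 above 0, with a median of -0.31, against 0.05 over all tested genes. Over all 14340 tested genes, 6784 lay below 0 and 7552 above. None was called in the 15-library fit, and Rps4x was the sole call in the 6-library fit, lower in EDL. Their summed level was 2057, 1907 and 1789 CPM in EDL 1 to 3 and 1989, 2383 and 2091 CPM in IF 1 to 3, so the pools overlapped.

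Of the lists of the axonal cytoskeleton and of calcium-binding and copine genes, which had no call in the 15-library fit, 4 members called in the 6-library fit are given here. The 15 tested cytoskeletal genes had 8 above 0 and a median of 0.13. Vim, an intermediate filament gene, was at 6.02, 18.8 and 20.6 CPM in EDL and at 81.9, 106 and 95.2 CPM in IF, a log2 fold change of -2.64 ± 1.16. Tubb2b, a beta-tubulin gene, was at 82.8, 87.5 and 86.8 CPM in EDL and at 254, 286 and 228 CPM in IF, a log2 fold change of -1.58 ± 0.46. Necab1, a calcium-binding protein gene, was at 4.52, 14.3 and 17.9 CPM in EDL and at 155, 124 and 138 CPM in IF, while Calb2, the gene of calretinin, had the opposite order with 54.5, 50.9 and 45.3 CPM in EDL and 12.1, 15 and 8.54 CPM in IF. The libraries of both pools lay apart for each of these 4 genes, as they did for 25.2% of all tested genes. The 4 were picked after their values were seen.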
